A study of Mus musculus with 12 samples.

Results

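The genes described here are the ligands and receptors of the epidermal growth factor (EGF) family in mouse colonoids, organoids grown from epithelial stem cells of the colon. They were taken by symbol from the deposited expression table, as 10 of its 54532 genes. Of these 10, 7 encode ligands (*Areg*, *Ereg*, *Hbegf*, *Tgfa*, *Btc*, *Epgn* and *Nrg1*) and 3 encode receptors (*Egfr*, *Erbb2* and *Erbb3*). The study asked how colonoids respond to heme when epithelial *Hmox1*, the gene of the heme-degrading enzyme HO-1, has been deleted. Poly-A mRNA of 12 libraries was sequenced, with 4 groups of 3. Control colonoids came from *Hmox1* fl/fl mice, which carry the floxed gene without Cre, and were given vehicle or hemin, a ferric chloride form of heme, at 200 µM for 24 hours. The colonoids labelled KO came from mice that carry the floxed gene and a Cre transgene under the *Vil1* promoter, which is active in epithelial cells of the small and large intestine, and were given the same treatments. The genotype label reads *Hmox1* fl/fl /Vil1 Cre for replicate 3 of the group labelled KO with hemin and *Hmox1* KO /Vil1 Cre for the other libraries labelled KO. Mice were 8 to 12 weeks old at harvest, all colonoids grew in medium conditioned by L-WRN cells, and neither labels nor methods say how many animals or cultures the 3 libraries of a group came from, so p-values measure only the spread between these libraries.

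Ligands of this family are made as membrane-bound precursors, cut loose by sheddases such as ADAM17, and act on neighbouring cells through receptors of the ERBB family. Binding pairs the receptors and starts signalling through ERK and other kinases. In the intestinal epithelium this pathway is known for driving crypt cell proliferation and the regrowth of injured mucosa.

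Each ligand folds around a segment called the EGF-like domain, held together by 6 cysteines. The coding sequences of this domain are shown for 4 ligands whose expression the results turn on, since they show what these genes have in common. A search of the translated GENCODE M21 transcripts for the spacing of the 6 cysteines found 1 match of 36 residues in each. Codons for cysteine are in capitals, and introns are left out.
Areg: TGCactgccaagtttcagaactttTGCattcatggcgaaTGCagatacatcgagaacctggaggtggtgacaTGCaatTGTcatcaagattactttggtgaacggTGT
Ereg: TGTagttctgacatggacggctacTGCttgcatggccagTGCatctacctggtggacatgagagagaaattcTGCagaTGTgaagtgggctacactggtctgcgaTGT
Btc: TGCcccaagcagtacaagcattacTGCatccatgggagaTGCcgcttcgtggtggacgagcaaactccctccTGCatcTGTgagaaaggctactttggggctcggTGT
Tgfa: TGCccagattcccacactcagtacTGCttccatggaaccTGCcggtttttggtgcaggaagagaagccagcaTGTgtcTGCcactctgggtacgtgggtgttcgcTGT
In GRCm38 these stretches run over exons 3 and 4 of each transcript. They lie at chr5:91143614-91144364 on the plus strand for Areg-201, chr5:91088496-91089111 on the plus strand for Ereg-201, chr5:91362421-91366197 on the minus strand for Btc-201 and chr6:86263200-86269960 on the plus strand for Tgfa-201. Of the 36 aligned residues, between 12 (*Areg* and *Ereg*, 33.3%) and 19 (*Btc* and *Tgfa*, 52.8%) were identical in a pair.

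Libraries held 11648801 to 25101868 fragments on genes, and the values are FPKM, fragment counts divided by gene length and by the size of the library. *Hmox1* was lower in the libraries labelled KO with vehicle and higher in them with hemin, against the label. It had 7.62, 6.85 and 7.90 FPKM in the control libraries with vehicle against 3.14, 2.11 and 2.31 in those labelled KO, and with hemin 503, 483 and 382 FPKM in controls against 1279, 1393 and 1271 in the libraries labelled KO. A value over the whole gene does not separate deleted from remaining exons. Replicate 1 of each control group and replicate 2 labelled KO with hemin stood apart by the noncoding gene *Gm23935*, chosen after its values were seen, which made up 16.8 to 29.0% of their FPKM sum against 1.18 to 2.81% in the other 9 libraries. Without these 3 libraries, limma called 0 members for hemin in controls, as in the full fit, and 3 in place of 4 for hemin in the colonoids labelled KO. Between genotypes *Btc* was no longer called with vehicle, and with hemin 0 members other than *Ereg* were called in either fit. Among the 3 of the interaction *Tgfa* stood in place of *Btc*. All 8 epithelial markers were expressed, with a summed FPKM of 5970 to 10402 over the 12 libraries. With hemin in the colonoids labelled KO, *Epcam*, *Cdh1*, *Vil1*, *Krt8*, *Krt19*, *Krt20* and *Cldn7* rose, and *Krt18* fell. The 8 stromal markers summed to 0.452 to 2.17 FPKM, the 7 immune markers to 1.07 to 5.20, the 3 endothelial markers to 0.0272 to 0.192 and the 3 glial markers to 0.0125 to 0.558, and the defining markers *Col1a1* and *Ptprc* had at most 4 and 6 fragments in a library. Of these lists *Pdgfrb* (41 to 120 fragments) and *Cd68* (16 to 114) passed the filter, and *Vim* reached 66 fragments.

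The most abundant member of the family was *Areg*, which encodes amphiregulin, a low-affinity ligand of EGFR. With vehicle, control colonoids expressed *Areg* at 134 ± 10.4 FPKM (SD, n = 3), followed by the receptors *Erbb3* at 65.6 ± 3.11 and *Erbb2* at 55.0 ± 6.44 FPKM. *Ereg* and *Hbegf* stood at 19.7 ± 1.49 and 16.7 ± 0.470 FPKM. *Tgfa*, *Egfr* and *Btc* formed the lowest expressed tier at 8.73 ± 0.580, 8.01 ± 0.643 and 7.17 ± 0.576 FPKM, and neighbours in this tier overlapped between libraries. *Epgn* and *Nrg1* were at or near 0. The order changed between groups. *Erbb3* exceeded *Areg* in control colonoids with hemin, and *Ereg* dropped to the ninth place of the 10 in both groups labelled KO.

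**Figure D1:**
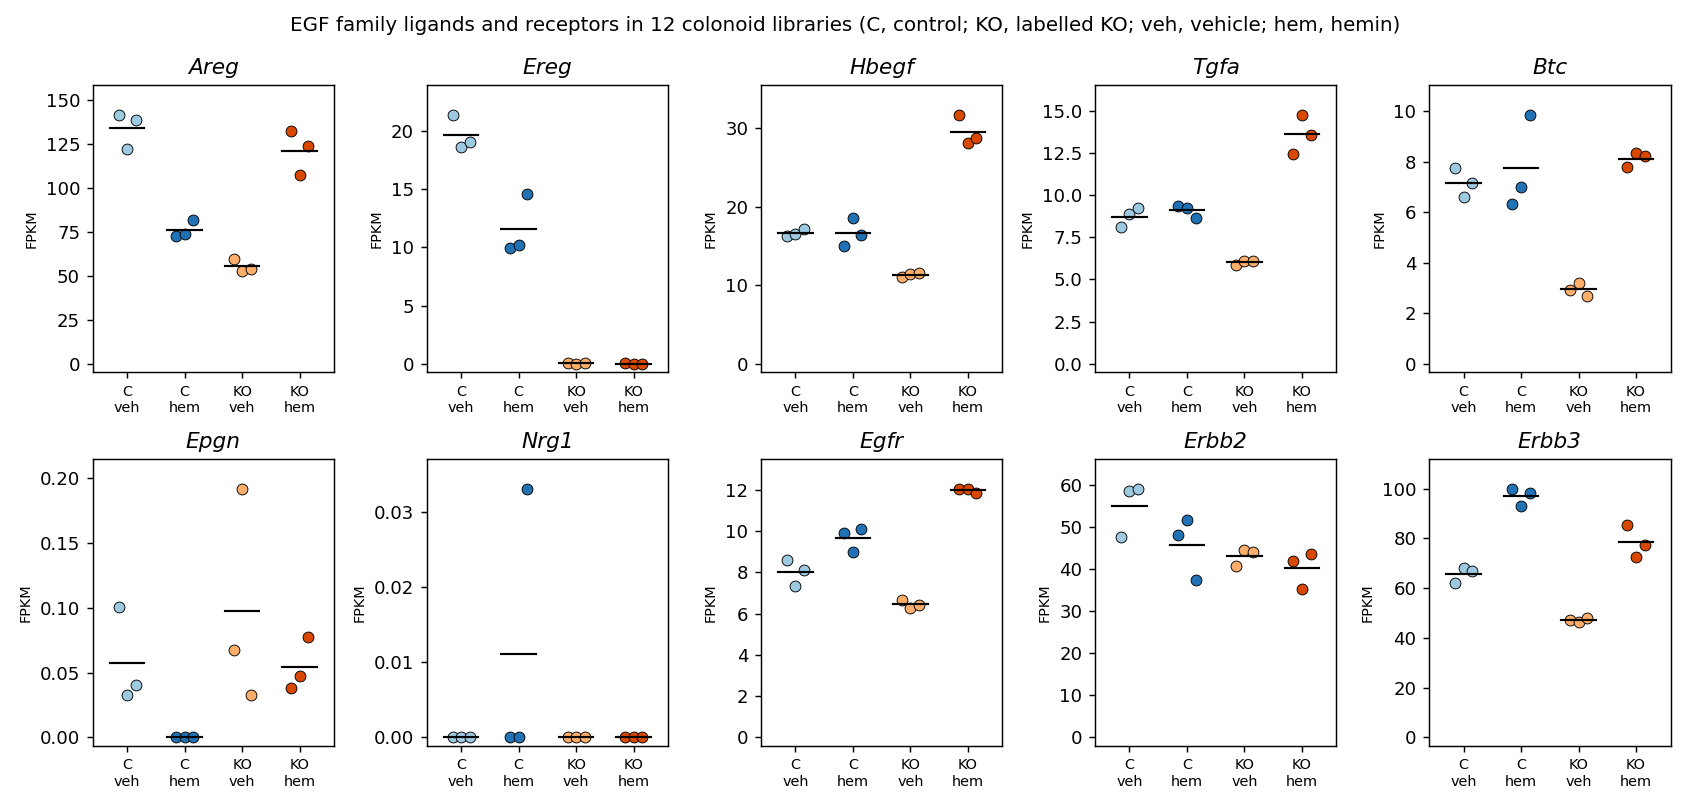
FPKM of the 10 family members (vertical axes, each from 0) in 4 groups of colonoids (C, control; KO, labelled KO; veh, vehicle; hem, hemin); points are libraries, 3 per group, and bars are means. *Areg* has its highest values in control with vehicle and labelled KO with hemin, *Ereg* is near 0 in the 6 libraries labelled KO, and *Hbegf*, *Tgfa* and *Egfr* are highest in labelled KO with hemin.

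The ligands together summed to 186 ± 11.9 FPKM in control colonoids with vehicle, 121 ± 9.40 with hemin, 75.9 ± 3.23 in the colonoids labelled KO with vehicle and 172 ± 12.9 with hemin. Only control with vehicle (173 to 195) and labelled KO with hemin (159 to 184) overlapped among these groups. The ligand sum was thus lower after hemin in controls and higher after hemin in the colonoids labelled KO. *Areg* made up 62.0 to 74.9% of the sum in every library. *Ereg* made up 8.63 to 11.1% of it in controls and at most 0.112% in the libraries labelled KO. The share of *Hbegf*, which encodes heparin-binding EGF-like growth factor, was 8.36 to 9.56% in control with vehicle, 12.5 to 15.6% in control with hemin, 13.8 to 15.5% in labelled KO with vehicle and 16.5 to 17.7% in labelled KO with hemin.

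**Figure D2:**
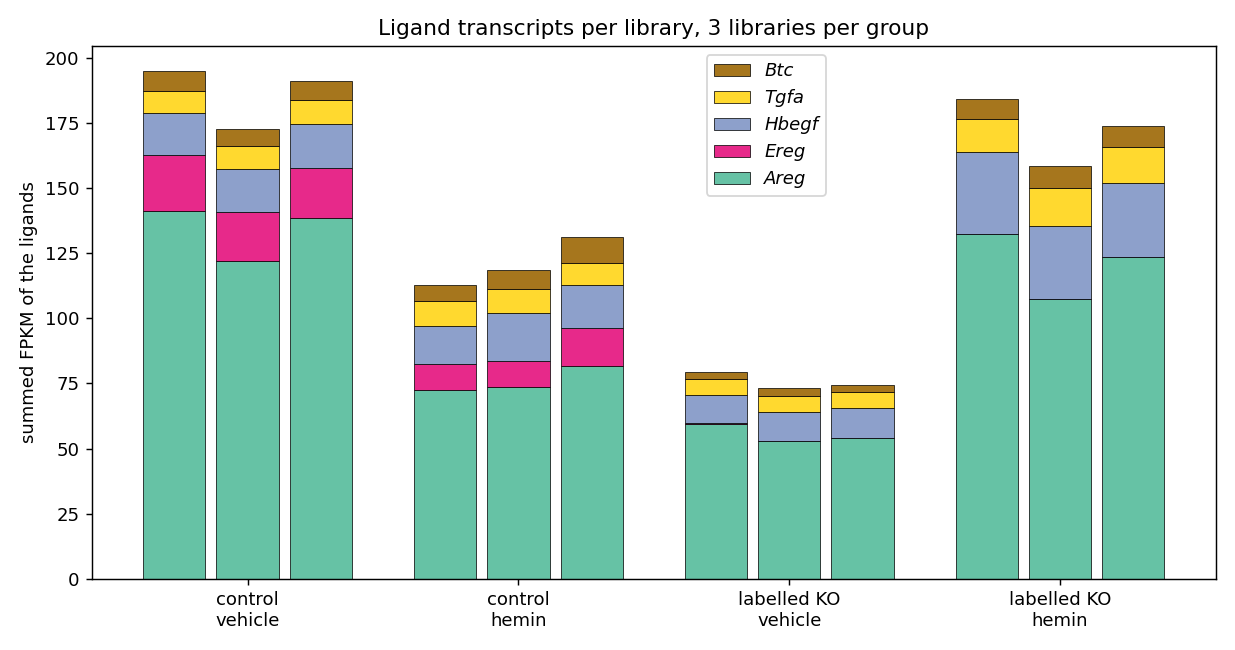
Summed FPKM of *Areg*, *Ereg*, *Hbegf*, *Tgfa* and *Btc* (vertical axis) in each of 12 libraries, 3 bars per group; each coloured part is 1 ligand, and *Epgn* and *Nrg1* are too low to be visible. The bars are tallest in control with vehicle and labelled KO with hemin and lowest in labelled KO with vehicle, and the part for *Ereg* is missing from the bars labelled KO.

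Differences were tested with limma on log2(FPKM + 1) over all 12740 genes with at least 1 FPKM in at least 3 libraries, and p-values were adjusted by the Benjamini-Hochberg method over all of them. The 8 members other than *Epgn* and *Nrg1* passed this filter, of which *Ereg* passed through the control libraries alone, so that its difference between genotypes lends no support to a count. Calls required both an adjusted p under 0.05 and a log2 fold change beyond 1 in either direction. In controls, 0 of the 8 members were called with hemin in limma, 4 of the 8 had an unadjusted p under 0.05 and an adjusted p under 0.05 (49.9% of all tested genes had the latter), and limma-voom on recovered fragments also called 0. The background in this comparison was 2.17% of all tested genes called higher and 5.93% called lower. In the colonoids labelled KO, hemin raised 4 of 8, namely *Areg*, *Hbegf*, *Tgfa* and *Btc*, and lowered 0, where 4.87% of all tested genes were called higher and 8.07% lower. In TPM 2 were higher and 0 lower, beside 2.78% and 17.2% of all genes, and in TPM without *Gm23935* the counts were again 2 and 0, beside 3.47% and 14.7%. With vehicle, 2 of the 7 members other than *Ereg* (*Areg* and *Btc*) were lower in the colonoids labelled KO than in controls and 0 were higher. The shares of all genes were 3.27% lower and 3.53% higher. With hemin, 0 of these 7 were called in either direction between genotypes, against 2.91% lower and 3.10% higher. The response to hemin was more positive in the colonoids labelled KO, by the interaction of genotype and hemin, for 3 of 8 (*Areg*, *Hbegf* and *Btc*) and more negative for 0, against 2.57% and 2.56% of all genes, and limma-voom also called *Tgfa*. By the adjusted p alone, 6 of 8 passed for hemin in the colonoids labelled KO, 7 between genotypes with vehicle, 6 between genotypes with hemin and 6 in the interaction (6, 5 and 5 of 7 in the last 3 without *Ereg*), beside 60.4%, 34.2%, 34.4% and 23.8% of all genes.

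For the 7 tested members other than *Ereg*, the median log2 difference with hemin was 0.06 in controls and 1.06 in the colonoids labelled KO, beside -0.01 and -0.0019 over all tested genes. In TPM these medians of the 7 were -0.13 and 0.78, beside -0.19 and -0.31 over all tested genes. Between genotypes their median was -0.47 with vehicle and 0.29 with hemin, beside 0.02 and 0.04 over all genes. The comparisons share groups with each other, so the 5 sets of values are not independent. The deposited FPKM carry a scaling between libraries, and rescaling them to TPM, which gives every library the same sum, shifted the median difference of the same 12740 genes by -0.31 for hemin in the colonoids labelled KO, -0.18 for hemin in controls, 0.14 between genotypes with vehicle, 0.0072 between genotypes with hemin and -0.13 for the interaction. In bulk RNA, fewer cells of a kind and less RNA per cell cannot be told apart.

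**Figure D3:**
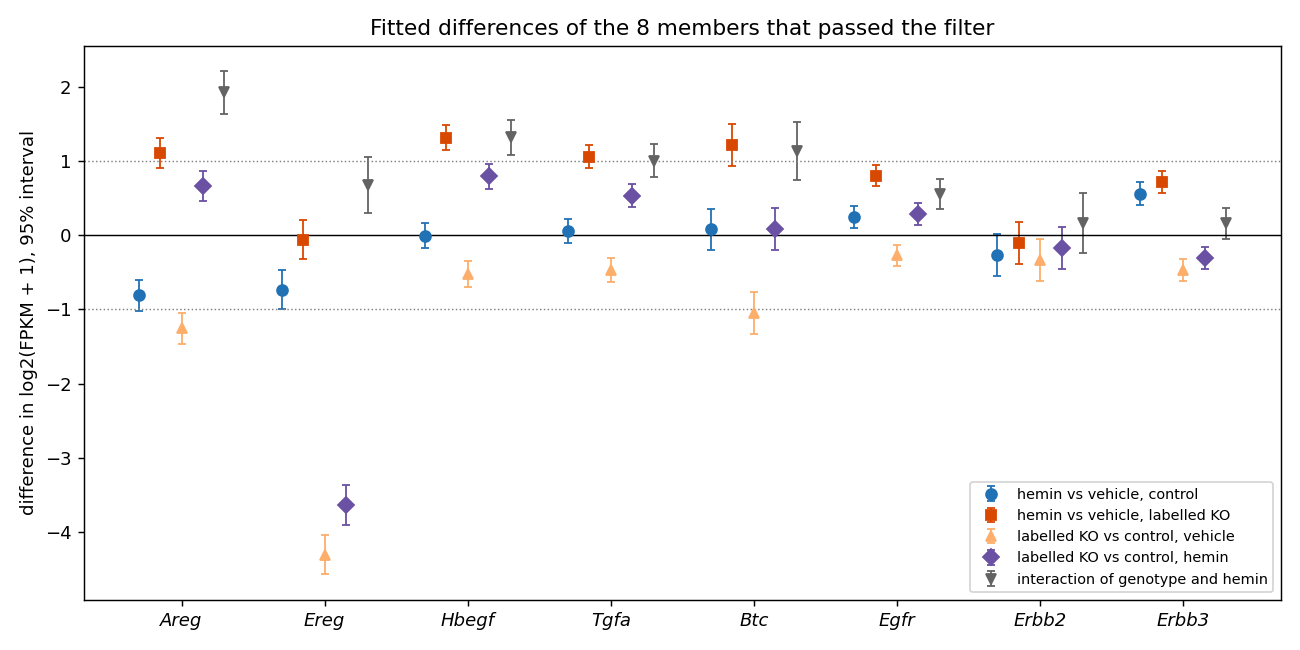
Differences in log2(FPKM + 1) fitted by limma (vertical axis) for the 8 members that passed the filter, with 95% intervals from 12 libraries; symbols mark the 5 comparisons and dotted lines the fold threshold of 1 in either direction. Values for hemin in controls (blue) lie between -0.81 and 0.56 and those for hemin in labelled KO (orange squares) reach 1.31 for *Hbegf*. *Ereg* lies below -3 in both comparisons of genotypes. It passed the filter through control libraries alone, so its intervals there are no test.

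*Areg* (ENSMUSG00000029378, chr5:91139599-91148432, plus strand, mm10) was lower with hemin in controls and higher with hemin in the colonoids labelled KO. The control libraries had 141, 122 and 139 FPKM with vehicle and 72.4, 73.5 and 81.7 with hemin. The libraries labelled KO had 59.6, 52.8 and 54.1 FPKM with vehicle and 132, 107 and 123.4 with hemin. Within each genotype the vehicle and hemin libraries did not overlap, and the levels of labelled KO with hemin overlapped only those of control with vehicle. The decrease in controls was -0.81 ± 0.09 on the log2 scale (SE, limma adjusted p = 3.2e-05), to 0.566 times the vehicle mean, which is under the fold threshold. The increase in the colonoids labelled KO was 1.11 ± 0.09 (adjusted p = 1.8e-06), to 2.18 times. With vehicle, *Areg* was lower by genotype, at -1.26 ± 0.09 (adjusted p = 1.3e-06) or 0.414 times the control mean. With hemin it was 1.60 times the control mean, at 0.66 ± 0.09 (adjusted p = 2.1e-04), short of a call. The interaction was 1.92 ± 0.13 (adjusted p = 3.4e-06). In TPM the increase with hemin in the colonoids labelled KO was 0.78, and 0.89 with *Gm23935* left out of the sum, both no longer called, and the decrease in controls was -1.01 in TPM and called.

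*Btc* (ENSMUSG00000082361, chr5:91357261-91402994, minus strand), the gene of betacellulin, which binds EGFR and ERBB4, had its lowest values in the colonoids labelled KO with vehicle. It had 7.75, 6.60 and 7.15 FPKM in control with vehicle, 6.34, 7.02 and 9.87 in control with hemin, 2.94, 3.20 and 2.69 in labelled KO with vehicle, and 7.79, 8.35 and 8.25 in labelled KO with hemin. The 3 libraries labelled KO with vehicle lay below the other 9. Among these 9, control with hemin overlapped both other groups, while control with vehicle (at most 7.75) and labelled KO with hemin (at least 7.79) lay side by side without overlap. *Btc* was 0.411 times the control mean with vehicle (-1.05 ± 0.13, adjusted p = 6.7e-05) and rose 2.76 times with hemin in the colonoids labelled KO (1.21 ± 0.13, adjusted p = 1.0e-05). With hemin the genotypes differed by 0.08 (95% interval -0.19 to 0.36, adjusted p = 0.65) and in controls hemin gave 0.08 (-0.20 to 0.36, adjusted p = 0.63). The interaction was 1.13 ± 0.18 (adjusted p = 9.8e-04). Without the 3 libraries rich in *Gm23935* the difference of genotypes with vehicle was -0.9989 and the interaction 0.95, just under the fold threshold, and leaving out replicate 1 of control with vehicle alone also gave -0.9989.

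*Hbegf* (ENSMUSG00000024486, chr18:36504929-36515805, minus strand) showed the largest rise with hemin of the members in the colonoids labelled KO on the log2(FPKM + 1) scale. The control libraries had 16.3, 16.5 and 17.2 FPKM with vehicle and 14.9, 18.5 and 16.4 with hemin, and the libraries labelled KO had 11.01, 11.4 and 11.5 with vehicle and 31.7, 28.1 and 28.8 with hemin. Control values overlapped between treatments, whereas the groups labelled KO lay below and above all controls. Hemin gave -0.01 in controls (95% interval -0.18 to 0.16, limma adjusted p = 0.94) and a rise to 2.61 times in the colonoids labelled KO (1.31 ± 0.08, adjusted p = 1.3e-07). Between genotypes *Hbegf* was lower with vehicle, at -0.52 ± 0.08 (adjusted p = 2.8e-04), and higher with hemin, at 0.79 ± 0.08 (adjusted p = 1.3e-05), both under the fold threshold. The interaction was 1.32 ± 0.11 (adjusted p = 1.4e-05), and *Hbegf* stayed called for hemin in the colonoids labelled KO in TPM, at 1.02.

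*Tgfa* (ENSMUSG00000029999, chr6:86195223-86275719, plus strand), which encodes transforming growth factor alpha, a classical EGFR ligand, moved in the same order at lower levels. Its values were 8.10, 8.86 and 9.24 FPKM in control with vehicle, 9.39, 9.25 and 8.68 in control with hemin, 5.88, 6.08 and 6.10 in labelled KO with vehicle, and 12.5, 14.8 and 13.6 in labelled KO with hemin. Again the controls overlapped between treatments and the groups labelled KO lay on either side of them. The rise with hemin in the colonoids labelled KO was 1.06 ± 0.07 (adjusted p = 3.5e-07), to 2.26 times, and in controls the difference was 0.06 (95% interval -0.10 to 0.21, adjusted p = 0.54). Genotypes differed by -0.47 ± 0.07 with vehicle (adjusted p = 3.5e-04) and 0.53 ± 0.07 with hemin (adjusted p = 1.6e-04). The interaction was 1.00 ± 0.10 (adjusted p = 4.8e-05), at the fold threshold and not called by limma, while limma-voom called it at 1.11 (adjusted p = 1.8e-05). The call with hemin did not hold in TPM, where the rise was 0.80, in TPM without *Gm23935* (0.91), or without replicate 2 labelled KO with hemin (0.998).

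Promoter sequences are shown for the members that hemin raised together in the colonoids labelled KO and that the RefSeq promoter table of GRCm38.p6 holds, which are *Areg*, *Btc* and *Tgfa* (6 of the 10 members have an entry). Each run gives the 250 bases before the annotated start on the gene's own strand, and capitals mark a match to 1 of 3 motifs.
Areg, chr5:91139349-91139598, plus strand: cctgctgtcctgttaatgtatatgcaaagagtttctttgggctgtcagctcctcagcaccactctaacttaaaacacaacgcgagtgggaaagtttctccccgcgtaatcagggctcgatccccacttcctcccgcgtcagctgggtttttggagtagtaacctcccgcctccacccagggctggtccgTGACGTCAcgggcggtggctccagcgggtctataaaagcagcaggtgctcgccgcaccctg
Btc, chr5:91402995-91403244, minus strand: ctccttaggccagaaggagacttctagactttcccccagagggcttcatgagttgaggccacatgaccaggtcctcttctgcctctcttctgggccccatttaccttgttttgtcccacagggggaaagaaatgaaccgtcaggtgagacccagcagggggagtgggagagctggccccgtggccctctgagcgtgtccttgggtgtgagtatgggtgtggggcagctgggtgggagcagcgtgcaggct
Tgfa, chr6:86194972-86195221, plus strand: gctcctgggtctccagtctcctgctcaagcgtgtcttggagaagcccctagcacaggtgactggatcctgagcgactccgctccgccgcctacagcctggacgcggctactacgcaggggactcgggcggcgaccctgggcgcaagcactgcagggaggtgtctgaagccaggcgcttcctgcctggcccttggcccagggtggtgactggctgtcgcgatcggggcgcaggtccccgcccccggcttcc
The motifs searched on both strands were the AP-1 motif TGANTCA, the cAMP response element TGACGTCA and the antioxidant response element TGACNNNGC. With 1 match in all, no motifs overlapped. Over 32851 promoter windows of the same length these occurred in 6.75%, 1.55% and 10.2%. The window of *Areg* held 1 match, a cAMP response element that begins 61 bases before the start, and those of *Btc* and *Tgfa* held 0 matches to these letters.

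*Ereg* (ENSMUSG00000029377, chr5:91074622-91093646, plus strand), the gene of epiregulin, a ligand of EGFR and ERBB4, was nearly missing from the colonoids labelled KO. Control libraries had 21.4, 18.6 and 19.1 FPKM with vehicle, from 1083 to 1458 fragments each, and 9.98, 10.2 and 14.6 FPKM with hemin. The libraries labelled KO had 0.0889, 0 and 0.0576 FPKM with vehicle, which are 6, 0 and 4 fragments, and 0.0168, 0 and 0 FPKM with hemin, which is 1 fragment in 1 library. No library labelled KO came near a control library. Over the group, 3856 fragments in control with vehicle stood against 10 in labelled KO, a depth-adjusted ratio of 411 (95% counting interval 223 to 858). With hemin 1675 fragments stood against 1, a ratio of 2508 (450 to 99114), and these intervals cover counting error only. On the log2(FPKM + 1) scale, which understates a change to near 0, the differences were -4.30 with vehicle and -3.63 with hemin, given without a test since *Ereg* passed the filter through control libraries alone.

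Within controls *Ereg* was lower with hemin, at -0.73 ± 0.12 (adjusted p = 4.8e-04) or 0.589 times the vehicle mean, short of a call. In the colonoids labelled KO no response could be measured at 0 to 6 fragments a library. The fitted interaction of 0.67 ± 0.17 (adjusted p = 0.016) rests on values at or near the floor of 3 fragments, and it turned to -0.97 (adjusted p = 0.66) with limma-voom on the recovered fragments.

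*Ereg* lies in a cluster with *Epgn*, *Areg* and *Btc* on chromosome 5, from 91027464 to 91402994, 375531 bases that hold 7 genes of the table, 4 of them tested. Its nearest ligand genes are *Epgn*, 39406 bases before its start, and *Areg*, 45952 bases beyond its end. The neighbours of *Ereg* were chosen for naming after their values were seen. *Gm19610*, an antisense gene at chr5:91051871-91074773 whose start overlaps that of *Ereg* by 152 bases, had 5.05, 5.88 and 4.99 FPKM in control with vehicle and 4.73, 1.04 and 1.89 in control with hemin. In the libraries labelled KO it had 0.150, 0 and 0 FPKM with vehicle and 0 in all 3 with hemin, and since it passed the filter through control libraries alone, no test is given for it. The sources used here do not say whether strand was kept, so fragments in the overlap of both genes cannot be told apart. Outside the cluster, *Mthfd2l* on the *Epgn* side had group means of 1.75 to 2.15 FPKM and did not pass the adjusted p in any of the 5 comparisons, with differences from -0.19 to 0.20. *Parm1* on the *Btc* side was higher by genotype with vehicle, at 0.63 ± 0.06 (adjusted p = 7.4e-06), and with hemin, at 0.41 ± 0.06 (adjusted p = 2.1e-04), short of a call. Of the cluster genes expressed in controls, *Ereg* and *Gm19610* were thus near 0 in the libraries labelled KO, while *Areg* and *Btc* were expressed in all 12 libraries. The other genes of the cluster, *Epgn*, *Gm23092* and *Gm19619*, had at most 0.547 FPKM in any library of either genotype.

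**Figure D4:**
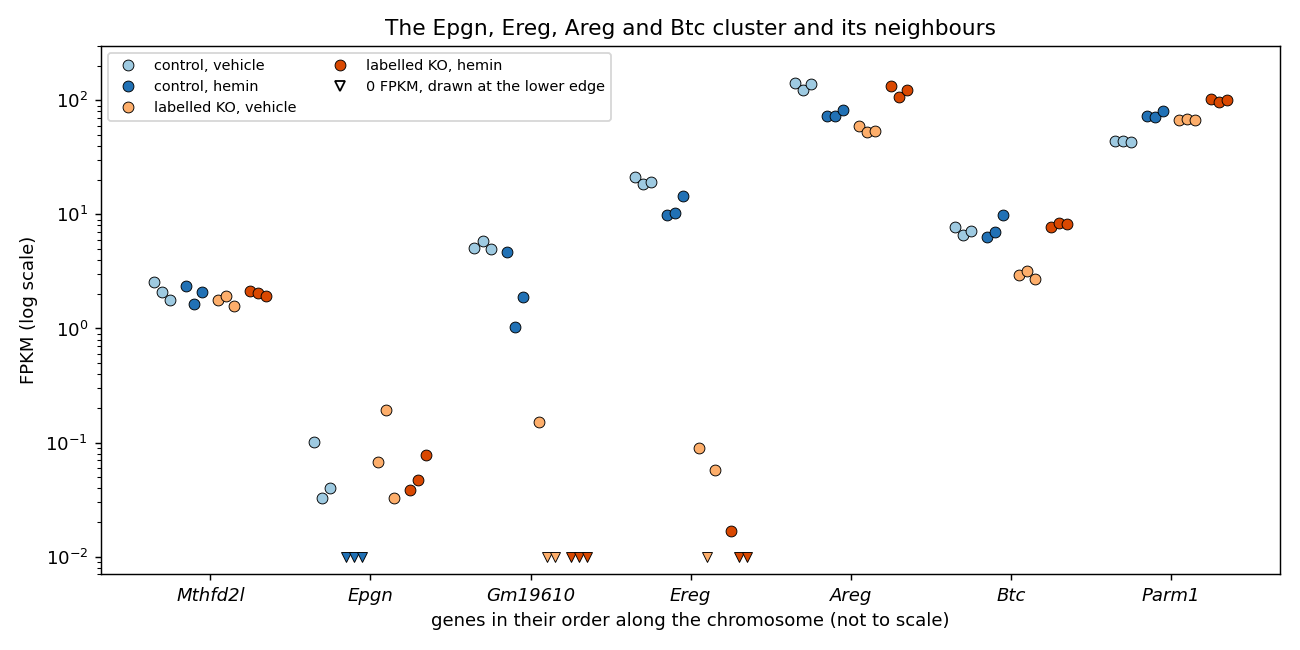
FPKM on a log scale (vertical axis) of genes in and beside the ligand cluster on chromosome 5, in their order along the chromosome but not to scale. *Gm23092* and *Gm19619* of the cluster are not drawn. Points are libraries coloured by group and triangles at the lower edge are values of 0. *Gm19610* and *Ereg* lie between 1.04 and 21.4 FPKM in controls and at most at 0.150 FPKM in labelled KO, and *Mthfd2l* and *Parm1* on either side stay above 1.56 FPKM in all 12 libraries.

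*Epgn*, the gene of epigen, and *Nrg1*, the gene of the ERBB3 and ERBB4 ligand neuregulin 1, were too low for a test. *Epgn* (chr5:91027464-91035215) had 0 to 6 fragments in a library, with 5 fragments in control with vehicle, 0 in control with hemin, 9 in labelled KO with vehicle and 5 in labelled KO with hemin. *Nrg1* (chr8:31814551-32884029, minus strand) had 4 fragments in 1 library of control with hemin and 0 in the other 11. At this depth 0 fragments allow up to 0.146 FPKM of *Epgn* and 0.0254 FPKM of *Nrg1* in a library. Of the other family genes, *Egf*, *Nrg2*, *Nrg3*, *Nrg4* and the receptor gene *Erbb4*, 0 of 5 passed the filter. With its own filter on fragments, limma-voom called *Egf* lower with hemin in the colonoids labelled KO and between genotypes with hemin, at 17 fragments in labelled KO with hemin against 68 in labelled KO with vehicle and 39 in control with hemin. The highest group mean among them was 0.196 FPKM, for *Nrg4* in control with vehicle. Of the family, 5 ligand and 3 receptor transcripts were thus above the filter.

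Of the receptors, 0 of 3 were called in any comparison by limma or limma-voom, and between 1 and 3 had an unadjusted p under 0.05, as did 35.4 to 64.0% of all tested genes. *Egfr* (ENSMUSG00000020122, chr11:16752203-16918158, plus strand), which encodes the receptor of most of these ligands, had 8.60, 7.33 and 8.10 FPKM in control with vehicle and 9.89, 8.997 and 10.1 with hemin. In the colonoids labelled KO it had 6.64, 6.28 and 6.43 FPKM with vehicle and 12.04, 12.1 and 11.8 with hemin. The 4 groups did not overlap. All 5 comparisons of *Egfr* passed the adjusted p, and the largest was the rise with hemin in the colonoids labelled KO, 0.80 ± 0.07 (adjusted p = 1.5e-06) or 1.86 times. In controls hemin gave 0.24 ± 0.07 (adjusted p = 0.0095), and the interaction was 0.56 ± 0.09 (adjusted p = 0.0014). In TPM the rise in the colonoids labelled KO was 0.53 (adjusted p = 0.014), and the other 4 comparisons no longer passed, with adjusted p from 0.24 to 0.76.

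*Erbb3* (ENSMUSG00000018166, chr10:128567523-128589652, minus strand), whose product has little kinase activity of its own and signals with a partner, was higher with hemin in both genotypes. It had 62.1, 67.9 and 66.8 FPKM in control with vehicle, 99.99, 93.0 and 98.3 in control with hemin, 47.0, 46.4 and 48.1 in labelled KO with vehicle, and 85.4, 72.3 and 77.4 in labelled KO with hemin. These 4 groups did not overlap either. Hemin gave 0.56 ± 0.07 in controls (adjusted p = 5.2e-05) and 0.72 ± 0.07 in the colonoids labelled KO (adjusted p = 4.8e-06). The interaction was 0.16 (95% interval -0.05 to 0.37, adjusted p = 0.27). *Erbb3* was lower in the colonoids labelled KO with vehicle (-0.47 ± 0.07, adjusted p = 2.7e-04) and with hemin (-0.31 ± 0.07, adjusted p = 0.0047). In TPM none of these passed, with 0.37 and 0.39 for hemin in the 2 genotypes (adjusted p = 0.15 and 0.11), while in TPM without *Gm23935* they were 0.46 and 0.50 (adjusted p = 3.0e-04 and 1.0e-04).

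*Erbb2* (ENSMUSG00000062312, chr11:98412470-98437716, plus strand), which encodes the partner receptor without a ligand of its own, passed the adjusted p in 0 of the 5 comparisons. Its values were 47.6, 58.4 and 59.0 FPKM in control with vehicle, 48.0, 51.6 and 37.4 in control with hemin, 40.8, 44.4 and 44.1 in labelled KO with vehicle, and 41.9, 35.2 and 43.6 in labelled KO with hemin. Vehicle and hemin libraries overlapped within each genotype, and the genotypes with vehicle did not overlap. The intervals of its differences reached from -0.62 to 0.18 on the log2 scale over the 4 comparisons of groups and from -0.23 to 0.57 for the interaction. As a share of the summed receptor FPKM, *Erbb2* lay between 40.2 and 45.7% in the 6 vehicle libraries and between 25.7 and 33.6% in the 6 hemin libraries, and *Erbb3* between 47.8 and 52.5% and between 58.3 and 67.4%.

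Cell type markers also differed between the groups. *Krt20*, a keratin of differentiated surface cells, rose 2.69 times with hemin in the colonoids labelled KO (1.41 ± 0.10, limma adjusted p = 3.8e-07), from 99.1 to 110.7 FPKM up to 246 to 322, and had 170 to 175 FPKM in control with vehicle and 276 to 318 with hemin. *Vil1*, the gene of villin, rose 2.44 times (1.28 ± 0.09, adjusted p = 6.8e-07), from 176 to 184 up to 396 to 469 FPKM, against 193 to 217 and 323 to 395 in controls. *Epcam* went from 758 to 781 up to 1418 to 1595 FPKM, against 795 to 809 and 1361 to 1405 in controls. *Krt18* went the other way, from 560 to 569 down to 379 to 427 FPKM, against 724 to 813 and 579 to 775 in controls. The goblet cell markers *Muc2*, *Fcgbp* and *Clca1* summed to 280 to 362 FPKM in control with vehicle, 163 to 176 with hemin, 245 to 257 in labelled KO with vehicle and 38.1 to 41.7 with hemin. The stem cell markers *Lgr5*, *Ascl2* and *Smoc2* summed to 5.33 to 7.85 FPKM in control with vehicle and 1.16 to 1.46 with hemin, against 15.2 to 16.3 and 1.55 to 2.50 in labelled KO. With vehicle, the goblet marker *Clca1* lay higher in labelled KO than in control, and *Lgr5* overlapped between genotypes. With hemin, *Lgr5* and *Smoc2* lay lower in labelled KO (0.196 to 0.364 and 0.110 to 0.201 FPKM) than in control (0.717 to 0.857 and 0.265 to 0.394). *Ascl2* lay higher there, at 1.24 to 1.99 against 0 to 0.378 FPKM. The colonocyte markers *Car1*, *Slc26a3* and *Aqp8* did not move together. *Car1*, which makes up most of their sum, had 1991 to 2212 FPKM in control with vehicle and 3983 to 6351 with hemin, against 1282 to 1343 and 2671 to 3073 in labelled KO. *Aqp8* had at least 38.2 FPKM in control with vehicle and at most 11.4 with hemin, against 408 to 445 and 421 to 778 in labelled KO, and *Slc26a3* went from at most 14.97 to at least 25.5 FPKM with hemin in controls and from at least 36.99 to at most 24.6 in labelled KO. The enteroendocrine markers *Chga* and *Chgb* summed to 15.6 to 27.2 FPKM over the control libraries and 86.7 to 129 over those labelled KO. Their part in the differences of ligands and receptors was not tested.

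Genes that act on or after the receptors were taken as lists that share 54 distinct genes, of which 48 passed the filter. Of 6 genes of ligand shedding and processing and 13 genes of adaptors and kinases near the receptor, 0 of 19 were called in any of the 5 comparisons by limma or limma-voom. For hemin in the colonoids labelled KO, 15 of the 19 had an unadjusted p under 0.05 and the same number an adjusted p under 0.05, which 60.4% of all tested genes had, and in the other comparisons between 4 and 10 had an unadjusted p under 0.05, as did 35.4 to 56.1% of all tested genes. *Adam17*, which encodes the main sheddase of amphiregulin and TGF-alpha, differed with hemin by 0.14 ± 0.10 in controls (adjusted p = 0.30) and by 0.43 ± 0.10 in the colonoids labelled KO (adjusted p = 0.0040). The median log2 difference of the 13 adaptor and kinase genes with hemin was 0.17 in controls and 0.30 in the colonoids labelled KO. Over all tested genes it was -0.01 and -0.0019. In TPM the medians of the 13 were 0.0072 and 0.0005, beside -0.19 and -0.31 over all tested genes.

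Of 17 negative regulators 16 were tested. *Lrig1*, which encodes a membrane protein that promotes degradation of ERBB receptors and marks crypt stem cells, fell with hemin in the colonoids labelled KO by 1.87 on the log2 scale (SE 0.09, limma adjusted p = 2.3e-08), from 48.9 ± 0.738 to 12.6 ± 0.615 FPKM. In controls it went from 27.2 ± 2.05 to 18.5 ± 2.24 FPKM, and the interaction was -1.34 ± 0.12 (adjusted p = 2.7e-05). *Dusp5* and *Dusp6*, whose products remove phosphates from ERK, rose with hemin in the colonoids labelled KO by 1.33 ± 0.11 and 1.01 ± 0.05 (adjusted p = 1.6e-06 and 6.7e-08). *Dusp5* had 5.92 ± 0.412 FPKM in control with vehicle and 5.99 ± 0.365 with hemin, against 5.98 ± 0.376 and 16.7 ± 2.91 in labelled KO. It was also called between genotypes with hemin (1.33 ± 0.11) and in the interaction (1.32 ± 0.15, adjusted p = 1.4e-04). *Errfi1*, which encodes the EGFR inhibitor MIG6, was lower in labelled KO with vehicle, at 16.9 ± 0.375 against 35.4 ± 1.64 FPKM (-1.02 ± 0.09, adjusted p = 4.6e-06). Calls of this list thus went both ways, 2 of 16 higher and 1 lower for hemin in the colonoids labelled KO (4.87% and 8.07% of all genes). In TPM 1 was higher and 2 were lower (2.78% and 17.2% of all genes). The median was 0.01 in FPKM and -0.32 in TPM, beside -0.0019 and -0.31 over all tested genes.

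The 16 transcripts known to respond to ERK were all tested, and *Dusp6*, *Spry4* and *Spred2* are also among the negative regulators. With hemin, 1 was called higher and 2 lower in controls, where 2.17% and 5.93% of all genes were. In labelled KO 5 were higher and 3 lower, where 4.87% and 8.07% of all genes were. In TPM 2 were higher and 3 lower in labelled KO, beside 2.78% and 17.2% of all genes. TPM without *Gm23935* gave the same counts, beside 3.47% and 14.7%. The medians were -0.31 in controls and 0.22 in labelled KO, beside -0.01 and -0.0019 over all tested genes. In TPM they were -0.51 and -0.11, beside -0.19 and -0.31. *Egr1*, an immediate early transcription factor, rose in both, from 15.5 ± 0.269 to 51.04 ± 10.6 FPKM in controls (1.63 ± 0.12, adjusted p = 1.8e-06) and from 10.8 ± 0.414 to 56.0 ± 3.68 in labelled KO (2.27 ± 0.12, adjusted p = 8.6e-08). *Myc* and *Ccnd1*, the gene of cyclin D1, fell in both. *Ccnd1* went from 82.0 ± 1.77 to 11.6 ± 1.32 FPKM in controls (-2.72 ± 0.09, adjusted p = 5.6e-09) and from 54.1 ± 1.00 to 15.9 ± 2.02 in labelled KO (-1.72 ± 0.09, adjusted p = 7.5e-08), and *Myc* fell by 1.40 and by 1.33 on the log2 scale. *Epha2*, *Ier3* and *Plaur*, the gene of the urokinase receptor, rose with hemin in the colonoids labelled KO, at 1.11, 1.03 and 1.65.

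Of the same 16, the interaction was called for 6 (*Epha2*, *Ier3*, *Ccnd1*, *Fos*, *Plaur* and *Fosl1*), all more positive in the colonoids labelled KO, against 2.57% of all genes. The median was 0.56 beside 0.02 over all genes. In TPM 4 were more positive and 0 more negative, beside 2.01% and 4.34% of all genes. In TPM without *Gm23935* 5 were more positive and 1 more negative, beside 2.49% and 4.87%. By the adjusted p alone *Etv4* was more negative, at -0.92 (limma adjusted p = 0.025). *Ier3* had the largest of the 6, 1.81 ± 0.18 (adjusted p = 5.2e-05), from 77.8 ± 6.79 and 45.3 ± 9.29 FPKM in controls and 30.0 ± 1.36 and 62.2 ± 4.25 in labelled KO. *Fos* gave 1.43 ± 0.17 (adjusted p = 1.7e-04) and *Fosl1* 1.51 ± 0.41 (adjusted p = 0.022). Between genotypes, *Etv4* and *Etv5*, ETS family transcription factors, were higher in labelled KO with vehicle (2.06 ± 0.18 and 1.48 ± 0.08, adjusted p = 5.8e-06 and 9.5e-08) and with hemin (1.14 ± 0.18 and 1.30 ± 0.08, adjusted p = 5.6e-04 and 2.9e-07). *Etv4* fell with hemin in the colonoids labelled KO by 1.49 on the log2 scale, from 22.2 ± 1.95 to 7.27 ± 0.582 FPKM. *Ier3* and *Plaur* were lower in labelled KO with vehicle, at -1.34 and -1.15. With vehicle, 2 of 16 were higher and 2 lower by genotype, and with hemin 2 were higher and 0 lower, against 3.53% and 3.27% of all genes with vehicle and 3.10% and 2.91% with hemin. Of the 29 calls of 14 pathway genes, 22 were also made in every alternative fit that could test the gene, and 0 changed sign. Among the others, *Dusp6*, *Ier3* and *Epha2* gave 0.68, 0.70 and 0.79 for hemin in the colonoids labelled KO in TPM, and *Errfi1* -0.90 between genotypes with vehicle. Single libraries also decided 3 of these calls by a narrow margin. *Dusp6* gave 0.9977 without replicate 1 labelled KO with vehicle and 0.989 without replicate 1 labelled KO with hemin, *Ier3* gave 0.98 without replicate 3 labelled KO with hemin, and *Errfi1* gave -0.98 without replicate 1 of control with vehicle. The interaction of *Ccnd1* lay between 0.88 and 1.09 and was called in 14 of 21 alternatives, falling below 1 without any of 5 single libraries (0.92 to 0.9971). That of *Fosl1* was called in 13 of 20 and was lost in TPM, with no filter and without any of 5 single libraries (replicate 2 or 3 of control with vehicle, replicate 1 or 3 labelled KO with vehicle, replicate 1 labelled KO with hemin), at a limma adjusted p of 0.05 to 0.056 without these libraries. *Etv4* between genotypes with hemin gave 0.91 without replicate 3 of control with hemin.

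**Figure D5:**
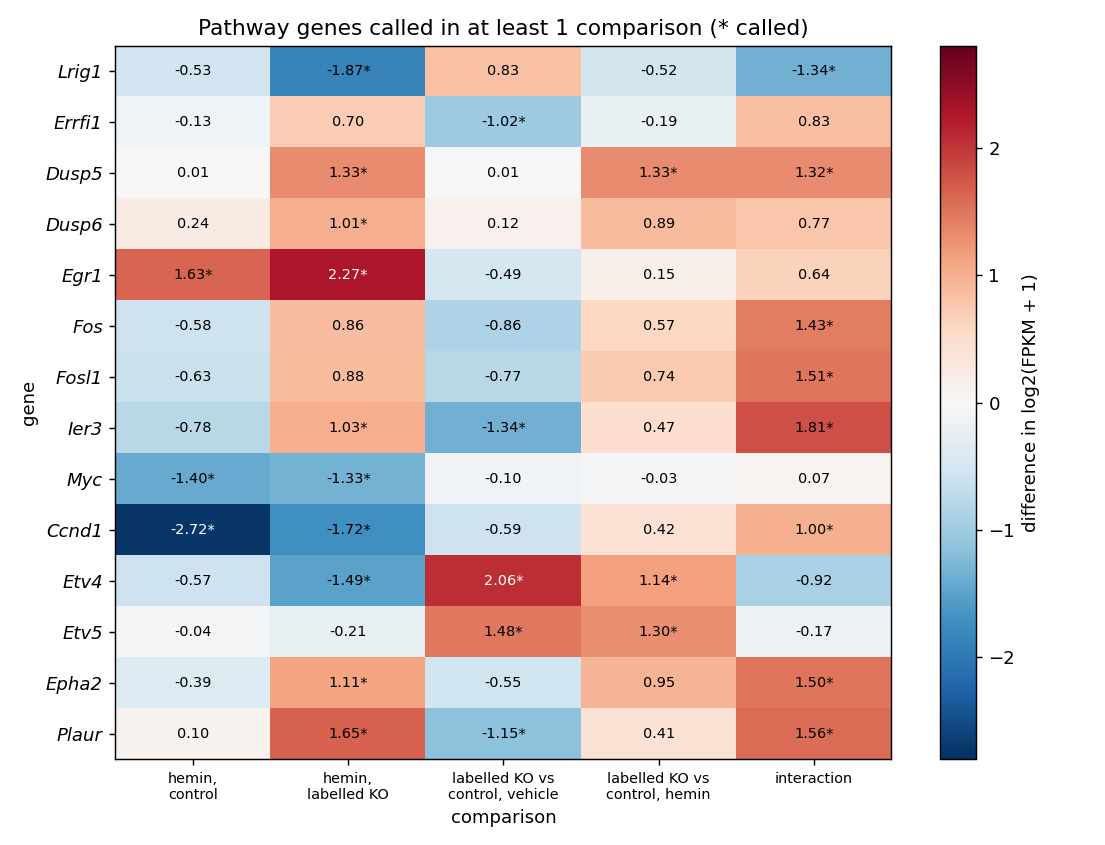
Differences in log2(FPKM + 1) fitted by limma (colour and printed value) for the 14 pathway genes called in at least 1 comparison (rows) in 5 comparisons (columns); an asterisk marks a call. *Ccnd1* and *Myc* are called lower with hemin in both genotypes, *Etv4* and *Etv5* higher by genotype in both treatments, and 7 of the 8 called interactions are positive.

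Genes with the pattern most like that of a member were named by the smallest root-mean-square difference over the 12 libraries between log2(FPKM + 1) values, each centred on the gene's own mean. For *Areg* these were *Zfand2a*, *Atf3*, a stress-induced transcription factor, and *Tmcc3*, at 0.12, 0.15 and 0.18, against a median of 0.60 over all tested genes. *Zfand2a* had means of 15.2 FPKM in control with vehicle and 8.41 with hemin, against 5.32 and 11.6 in labelled KO. For *Ereg* the nearest were *Gm42047*, *Rps4l* and *Cyba*, which encodes a subunit of the NADPH oxidase, at 0.23, 0.37 and 0.38 against a median of 2.04. All 3 were lower in the colonoids labelled KO, with *Rps4l* at 24.7 and 22.0 FPKM in controls against 0.0210 and 0 in labelled KO, and *Cyba* at 33.9 and 19.6 against 1.14 and 0.188. For *Hbegf* they were *Cobl*, *Unc5b* and *Il22ra1* (0.12, 0.12 and 0.13 against 0.55) and for *Egfr* *F2rl1*, *Mon2* and *Zscan29* (0.06, 0.07 and 0.07 against 0.41). These distances describe the 12 libraries and carry no test.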

How the data were processed

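Per the labels, RNA of 12 colonoid libraries was enriched for poly-A mRNA by Novogene, and the submitters' processing notes name fastp, HISAT2 2.0.5, featureCounts 1.5.0-p3 and the build mm10. The authors deposited 1 table of FPKM per gene and library, with gene positions and lengths. Median-of-ratios factors computed from it were 1 in every library, so it already carries a scaling. All values were whole multiples, within 0.01 fragments, of 1 fragment, so fragments were recovered (11648801 to 25101868 a library), and 3 fragments were taken as the floor. Whether the kit kept strand is not given in the sources used here.

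limma 3.58.1 (R 4.3.3) was fitted, two-sided, to log2(FPKM + 1) of the 12740 genes with at least 1 FPKM in at least 3 libraries, with 1 mean per group, all 12 libraries and a trended empirical Bayes prior, on 8 residual degrees of freedom. Adjusted p-values are Benjamini-Hochberg values from limma. A call needed an adjusted p under 0.05 together with a log2 fold change beyond 1 in either direction. On simulated data, this fit recovered 91.5% of 199 genes changed 4-fold among 12324 tested for hemin in the colonoids labelled KO, 92.0% between genotypes with hemin and 91.0% in the interaction, with 1, 6 and 3 unchanged genes called. The simulation gave all genes and groups the same spread and placed the changes in labelled KO with hemin alone. It held no library that stood apart, so it does not measure recovery in these libraries or near the fold threshold. Python 3.11.15 with pandas 2.3.3, SciPy 1.17.1 and matplotlib 3.10.9 did the rest.

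Genes were named by rule: *Hmox1*, the 10 members, each pathway list gene called in a comparison, and the 3 genes nearest in pattern to *Areg*, *Ereg*, *Hbegf*, *Tgfa* and *Egfr*, of which those for *Tgfa* are not reported here. Outside this rule, *Adam17*, *Gm23935*, the other family genes (*Egf*, *Nrg2*, *Nrg3*, *Nrg4* and *Erbb4*), *Spry4*, *Spred2*, the neighbours of *Ereg* and the cell type markers were named after their values were seen. The members and all lists were chosen with earlier results of these data known. All 10 members match GENCODE M21 by identifier. Alternatives were a pseudocount of 0.1, no filter, a mean FPKM of at least 5, TPM with and without *Gm23935*, a replicate block, the compared groups alone, the adjusted p alone, limma-voom on recovered fragments, each library left out, and, added after seeing the data, the 3 libraries rich in *Gm23935* left out. A confidence level of 95% was used for intervals.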

Additional observations from a re-analysis of the deposited data

Results flagged for a closer look

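The response to hemin differed between the genotypes, by the interaction in limma with Benjamini-Hochberg adjustment over 12740 genes, for 5 of the 7 members tested other than *Ereg*, where 23.8% of all tested genes passed the adjusted p. On the log2(FPKM + 1) scale, labelled KO minus control, the difference was 1.92 for *Areg* (adjusted p = 3.4e-06), 1.32 for *Hbegf* (adjusted p = 1.4e-05), 1.13 for *Btc* (adjusted p = 9.8e-04), 1.00 for *Tgfa* (adjusted p = 4.8e-05) and 0.56 for *Egfr* (adjusted p = 0.0014). For *Ereg* the fitted value was 0.67 (adjusted p = 0.016), but with 0 to 6 fragments in each library labelled KO no response could be measured there, and limma-voom gave -0.97 (adjusted p = 0.66). *Areg* is the member whose 3 hemin libraries all lay below the vehicle libraries in controls and all above them in the colonoids labelled KO.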

How the results depend on the processing

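The number of members called stayed within 1.5 times under most alternatives. For hemin in the colonoids labelled KO it was 4 in FPKM and 2 in TPM as well as in TPM without *Gm23935*, where *Areg* and *Tgfa* kept their direction under the fold threshold. The shares of all genes called higher in these 2 fits were 2.78% and 3.47%. For hemin in controls TPM called 1 member lower, *Areg*, beside 10.2% of all genes, and with the adjusted p alone 4 passed, beside 49.9% of all genes. The adjusted p alone also called 7 between genotypes with vehicle, 6 between genotypes with hemin and 6 in the interaction (6, 5 and 5 of 7 without *Ereg*), beside 34.2%, 34.4% and 23.8% of all genes. The cause was not tested. Leaving out 1 library in turn gave 0 for hemin in controls, 3 to 4 for hemin in the colonoids labelled KO, 2 to 3 and 1 between genotypes with vehicle and hemin, and 3 to 4 for the interaction. Here and below, the counts between genotypes include *Ereg*, which passed the filter through control libraries alone and lends them no support. The interaction of *Ereg* reversed to -0.97 with limma-voom. Among 680 values of single members, 642 kept their side of the threshold, 9 fell below it, 28 rose past it and 1, that of *Ereg*, reversed. The 28 include members that passed by the adjusted p alone, where the fold threshold was dropped and the values themselves did not change. Of the 642, 11 had the other sign with both values short of the adjusted p, for *Btc*, *Hbegf* and *Tgfa* with hemin in controls and *Btc* between genotypes with hemin. Without the 3 libraries rich in *Gm23935*, chosen after seeing the data, the counts were 0, 3, 2, 1 and 3 in the order above, the interaction being called for *Tgfa* in place of *Btc*.

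Replicate numbers did not pair the libraries. The 18 correlations of deviations between same-numbered libraries averaged -0.04 (-0.33 to 0.18), and 0 of 12 libraries correlated best with their own number. A replicate block gave 0, 4, 3, 1 and 3 members called in the same order, and so changed no count. Fitting only the groups compared was not possible for the interaction, which needs all 4. Groups of 3 limit precision, and *Epgn*, *Nrg1* and, in the colonoids labelled KO, *Ereg* were too shallow for any response to be measured.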
